A study of Mus musculus with 3 samples.

Results

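EBF1 occupancy at 5 genes of myeloid and innate lymphoid fate was compared between wild-type EBF1 (EBF1wt) and EBF1 with the amino acid substitution E271A (EBF1E271A) in mouse pro-B cells. The genes were Itgam, Csf2ra, Flt3, Cebpb and Id2. Their regions were those whose centre had one of these genes as its nearest protein-coding gene, at most 100 kb from the gene body on GRCm38. This rule took 11 of the 4116 deposited regions, which overlapped into 6 of 2121 loci: 2 for Cebpb and 1 for each of the other genes.

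An antibody against EBF1 was used for chromatin immunoprecipitation, and the DNA was sequenced (ChIP-seq). The cells came from c-kit+ progenitors of the fetal liver of C57BL/6 embryos at E16.5 with the genotype Ebf1-/-, so EBF1 itself was supplied by a retrovirus that also encodes GFP. All cells additionally carried retroviral rtTA and a doxycycline-inducible, FLAG-tagged NICD1, the active intracellular part of the Notch1 receptor, and received 1 µg/ml doxycycline for 6 hours. The groups were therefore Ebf1-/- with induced NICD1 plus Strep- and FLAG-tagged EBF1wt, the same with Strep- and FLAG-tagged EBF1E271A, and an input from the EBF1wt cells, each with 1 library. No untreated or EBF1-free sample was used here, and the amount of each EBF1 protein in the cells was not analysed here. The medium held IL7, SCF and Flt3 ligand, and the cells had been differentiated on OP9 feeder cells. Human BJAB lymphoma cells, mixed in at 1 per 10 mouse cells, set the scale between libraries. No RNA values accompanied the regions, so the pro-B label was not checked against marker genes.

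EBF1 is a transcription factor that starts the B lineage program in lymphoid progenitors and is known to restrain the genes of other fates. Progenitors without it keep myeloid and innate lymphoid potential. Myeloid fate depends on C/EBP factors and on cytokine receptors, whereas innate lymphoid fate depends on ID2, which blocks the E proteins that B cell development needs. EBF1 binds DNA as a dimer at a nearly palindromic site whose core is CCCNNGGG.

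The deposited values are counts per 300 bp region, scaled by the authors with the human chromatin. Unscaled counts had a median per region of 91 for EBF1wt and 209 for EBF1E271A, and every region exceeded a scaled count of 100 in at least 1 library. Ratios below are EBF1E271A over EBF1wt at the overlapping region with the higher mean. Their 95% intervals are exact (Clopper-Pearson), come from the unscaled counts and hold no error but that of counting. With 1 library per group there was no replicate check and no test between the proteins. Over all loci the median ratio was 0.896, with quartiles of 0.76 and 1.06. When both libraries were scaled to equal sums over the regions, every log2 ratio rose by 0.22 and the median over loci became 1.04. When the sums left out the single highest region, the rise was 0.15 and the median 0.996.

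The 6 loci fell into 2 kinds. At Itgam, Id2, Flt3 and the farther locus of Cebpb, both proteins gave similar scaled counts, with ratios from 0.865 to 0.943 and intervals that held the median of all loci. At Csf2ra and the nearer locus of Cebpb, EBF1E271A gave 2.48-fold and 1.92-fold lower counts than EBF1wt. Of the 6 loci, 2 were at least 1.5-fold lower on the scale of log2(value + 1), against 14.1% of all loci, and 1 was at least 2-fold lower, against 4.48%. None was at least 1.5-fold or 2-fold higher, against 3.11% and 0.849% of all loci. All 6 ratios lay below 1, as did 67.2% of all loci. With equal sums, 4 of the 6 lay above 1, and with the highest region left out of the sums only the farther Cebpb locus did (1.049). The ratios at Csf2ra and the nearer Cebpb locus were 0.471 and 0.607 with equal sums, and 0.449 and 0.579 without that region. The median log2 ratio was -0.20 for the 6 loci and -0.16 for all loci.

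**Figure D1:**
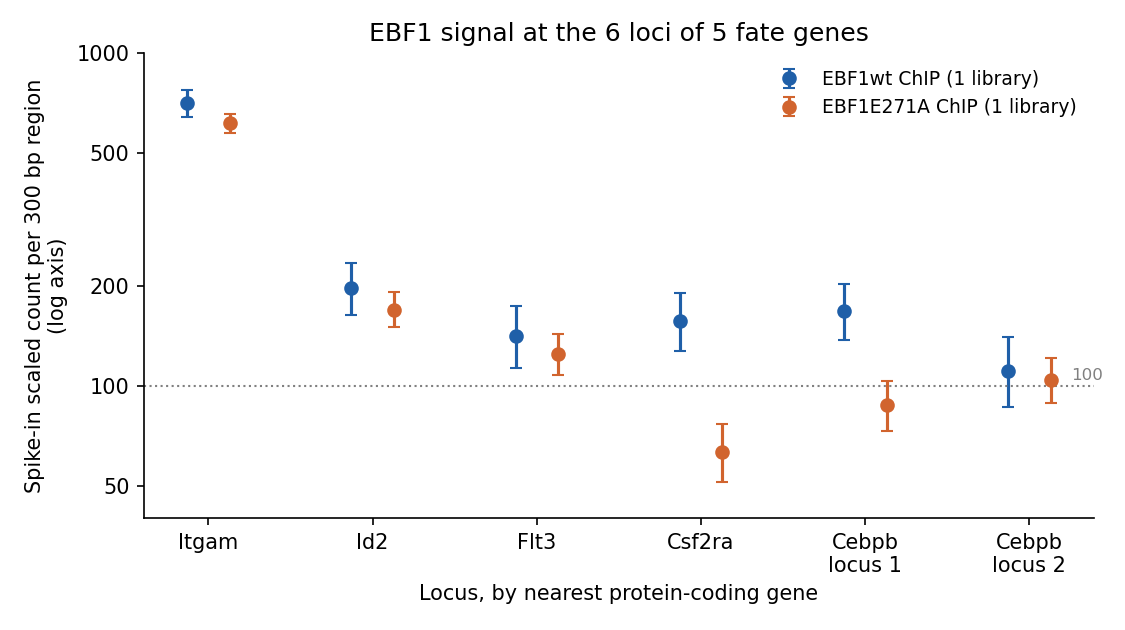
Spike-in scaled counts per 300 bp region (log axis) at the 6 loci for the single EBF1wt library (blue) and the single EBF1E271A library (orange). Bars are exact 95% Poisson intervals of the unscaled counts on the scaled axis, and the dotted line marks 100. Itgam is the strongest of the 6 loci in both libraries, and the intervals of the libraries do not overlap at Csf2ra and Cebpb locus 1.

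Id2 was the one gene of the 5 with an EBF1 region close to its start site. Id2 is read from the minus strand of chromosome 12 (25093799 to 25096092), and the region centre lay 0.627 kb upstream of its RefSeq start. The 250 bases upstream of that start come from the RefSeq promoter table of GRCm38.p6 (chr12:25096093-25096342, minus strand). They are shown because they face the EBF1 region, whose near edge lay 226 bases beyond them. Capitals mark a match to CCCNNGGG, 237 bases upstream of the start.

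Id2 upstream: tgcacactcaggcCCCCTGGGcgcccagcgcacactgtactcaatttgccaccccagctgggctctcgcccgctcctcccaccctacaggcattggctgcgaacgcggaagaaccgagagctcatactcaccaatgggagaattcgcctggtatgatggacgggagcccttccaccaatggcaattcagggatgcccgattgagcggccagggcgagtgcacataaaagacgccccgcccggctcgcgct

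The other match among the 5 promoters lay 208 bases upstream of the Cebpb start on chromosome 2 (167688707 to 167688714, plus strand), and is shown with its flanks because Cebpb had the most loci of the 5 genes but none at its promoter.

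Cebpb match: tcctccgtgttCCCGAGGGgcgggaagggg

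The search covered 250 bases before to 50 after each start, on both strands, and the site reads the same on both. No match was found in the windows of Itgam, Flt3 and Csf2ra. Of all 32851 promoter windows in the table, 13.7% held CCCNNGGG, against 54.4% of the 215 windows that overlapped an EBF1 region. For the 10-base form with a T before and an A after this core, the shares were 0.904% and 21.9%. None of the 5 genes had an EBF1 region in its promoter window. The 10-base form was absent from all 5 windows, although the Cebpb match extends to CCCNNGGGA when read on the minus strand, as in 6.56% of all windows. The sequences of the EBF1 regions themselves were not analysed here.

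Among the surface and receptor genes, Itgam had by far the highest EBF1 signal. Itgam encodes CD11b, the integrin subunit of macrophages, granulocytes and many natural killer cells. Its region lay inside the gene (chromosome 7, 128100831 to 128101130), 38.3 kb downstream of the start, with the related integrin gene Itgax 28.5 kb farther on. The scaled count was 706.8 for EBF1wt (Poisson interval 642.7 to 775.4) and 614.8 for EBF1E271A (576.7 to 654.7). These values ranked 20th of 2121 loci in each library. The ratio was 0.870 (0.777 to 0.975), an interval below 1, as for 29.8% of all loci. It was 1.014 with equal sums and 0.967 with the highest region left out of the sums. The 2 overlapping regions of this locus were centred 10 bp apart and gave ratios of 0.870 and 0.868. Among the 200 loci closest to it in mean signal, 33.5% had a lower ratio. Few loci exceed Itgam, so most of these 200 had a weaker signal and are not close matches.

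Flt3 encodes the receptor tyrosine kinase of multipotent and lymphoid progenitors, which is normally shut off when B cells commit. Its region also lay inside the gene (chromosome 5, 147351913 to 147352212), 48.4 kb downstream of the start. Signal was near the middle of the table, with 140.7 for EBF1wt and 124.6 for EBF1E271A, values above those of 47.3% and 45.5% of all loci. The ratio was 0.885 (0.686 to 1.15), 1.033 with equal sums and 0.985 with the highest region left out. The interval spans both lower and higher EBF1E271A values.

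Csf2ra encodes the ligand-binding chain of the receptor for GM-CSF, a growth factor of granulocytes and macrophages. Its single region lay 17.5 kb beyond the 3′ end of the gene (chromosome 19, 61199538 to 61199837), 28.7 kb from the start. On its other side the protein-coding gene Gm7102 lay 23.4 kb away, so the assignment to Csf2ra rests on a small difference in distance. The scaled count was 156.5 for EBF1wt (127.2 to 190.6), above that of 57.6% of all loci. For EBF1E271A it was 63.2 (51.5 to 76.9), above that of only 3.54%. The ratio of 0.404 (0.303 to 0.539) was the 46th lowest of 2121, and 0.5% of the 200 loci closest in mean signal had a lower one. Before scaling the libraries held nearly equal counts here, 99 and 100, in a table where the EBF1E271A counts were generally the higher. Csf2ra was the sole locus of the 6 made of 1 region, as were 126 loci in all, of which 16.7% were at least 2-fold lower. The locus exceeded 100 in EBF1wt alone, as 23.1% of all loci did, and a locus on that side of the limit cannot have a ratio above 1.

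Id2 had the second highest signal of the 6 loci in each library. ID2 is a helix-loop-helix protein without a DNA-binding region and is needed by innate lymphoid and natural killer cells. At the region upstream of its start (25096569 to 25096868) the scaled count was 196.1 for EBF1wt (163.1 to 233.8) and 169.5 for EBF1E271A (149.8 to 191.1). These values lay above those of 71.8% and 68.3% of all loci. The ratio was 0.865 (0.696 to 1.08), close to the median of 0.917 at the 200 loci of like signal. It was 1.008 with equal sums and 0.962 with the highest region left out. The 2 overlapping regions gave 0.865 and 0.893. No other locus lay within 500 kb.

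Cebpb encodes C/EBPβ, a basic leucine zipper factor of macrophages that can turn B cells into macrophage-like cells when forced on. Its 2 loci lay 22.0 kb apart downstream of the gene, 66.4 and 88.5 kb from the start, and differed from each other. At the nearer one (chromosome 2, 167755214 to 167755513) the scaled count was 167.6 for EBF1wt (137.2 to 202.7) and 87.3 for EBF1E271A (73.3 to 103.1). The ratio was 0.521 (0.401 to 0.677), with 2.5% of the 200 loci of like signal lower, and both overlapping regions gave nearly the same value, 0.521 and 0.526. This locus too exceeded 100 in EBF1wt alone. At the farther one (167777232 to 167777531) the values were 110.7 and 104.4, a ratio of 0.943 (0.709 to 1.27), which became 1.1 with equal sums and 1.049 with the highest region left out. The ratio at the nearer locus was 0.553 of that at the farther (exact conditional interval 0.372 to 0.819), a quantity that does not depend on the scale between the libraries.

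All 15 pairs of the 6 loci were compared in this way, each with its own 95% interval. In 8 pairs the interval excluded 1, and each of these set Csf2ra or the nearer Cebpb locus against one of the other 4 loci. For example, the ratio at Itgam was 2.15 times that at Csf2ra (1.576 to 2.94), and the ratio at Id2 was 1.66 times that at the nearer Cebpb locus (1.18 to 2.34). The remaining 7 pairs had intervals that held 1. Csf2ra against the nearer Cebpb locus gave 0.776 (0.524 to 1.15), and Itgam against Id2 gave 1.01 (0.784 to 1.29). Both kinds of loci were named from these same ratios, so the pairs restate that split and are no separate support for it. The intervals compare 2 libraries and say nothing of the spread between cultures.

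The order of the loci by signal differed between the proteins. For EBF1wt it ran from Itgam over Id2, the nearer Cebpb locus, Csf2ra and Flt3 to the farther Cebpb locus. Only Itgam stood clear of its neighbour, as the counting intervals of all later neighbours overlapped. For EBF1E271A it ran from Itgam over Id2, Flt3, the farther Cebpb locus and the nearer one to Csf2ra. Here Itgam and Id2 each stood clear of the next locus, and the later neighbours overlapped. The change of order restates the low ratios at Csf2ra and the nearer Cebpb locus and is no separate result.

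**Figure D2:**
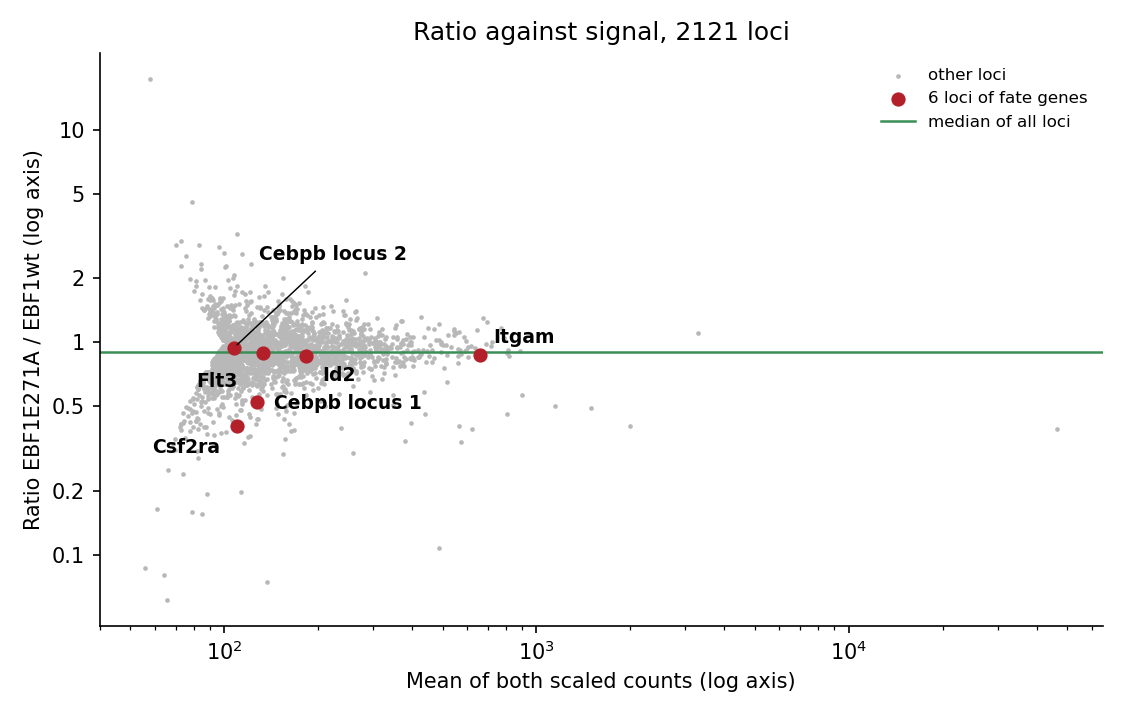
Ratio of EBF1E271A over EBF1wt (log axis) against the mean of both scaled counts (log axis) at 2121 loci, with the 6 loci of the fate genes in red and the median ratio of 0.896 as a green line. Csf2ra and Cebpb locus 1 lie in the lower part of the cloud at moderate signal, with 2.12% and 5.14% of all loci lower in ratio. The other 4 lie near the line, and Itgam lies far to the right.

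The low ratio near Cebpb was shared by several loci on the same stretch of chromosome 2. Within 500 kb of the nearer Cebpb locus there were 13 loci with it included, against 0 to 2 other loci around Itgam, Id2, Flt3 and Csf2ra. Of the 13, 6 had an interval wholly below the median ratio of all loci, as 16.7% of all loci did, and 1 had an interval wholly above it. The 13 loci had a median ratio of 0.73. Upstream of Cebpb, a locus nearest to Tmem189 lay 16.4 kb from the start, closer than either locus assigned to Cebpb, with scaled counts of 189.7 and 107.5 (ratio 0.567, 0.446 to 0.722). Farther upstream followed loci nearest to Ube2v1, a ubiquitin-conjugating enzyme variant gene (0.730, 0.598 to 0.894), to Snai1, which encodes a zinc finger repressor (0.645, 0.526 to 0.792), and to B4galt5, a galactosyltransferase gene (0.654, 0.523 to 0.821). Just outside the 100 kb limit on the other side, a locus 103.6 kb from the Cebpb body had scaled counts of 150.2 and 78.4 (ratio 0.522, 0.397 to 0.690), whereas the farther Cebpb locus, just inside at 87.0 kb, had 0.943. At 2 loci between Cebpb and the phosphatase gene Ptpn1, 130.7 and 165.3 kb from the Cebpb start, the ratios were 0.979 and 1.01. Inside Ptpn1, 2 loci had ratios of 1.66 (1.22 to 2.304) and 0.704 (0.522 to 0.956). The copy number of this stretch and the input signal were not analysed here.

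**Figure D3:**
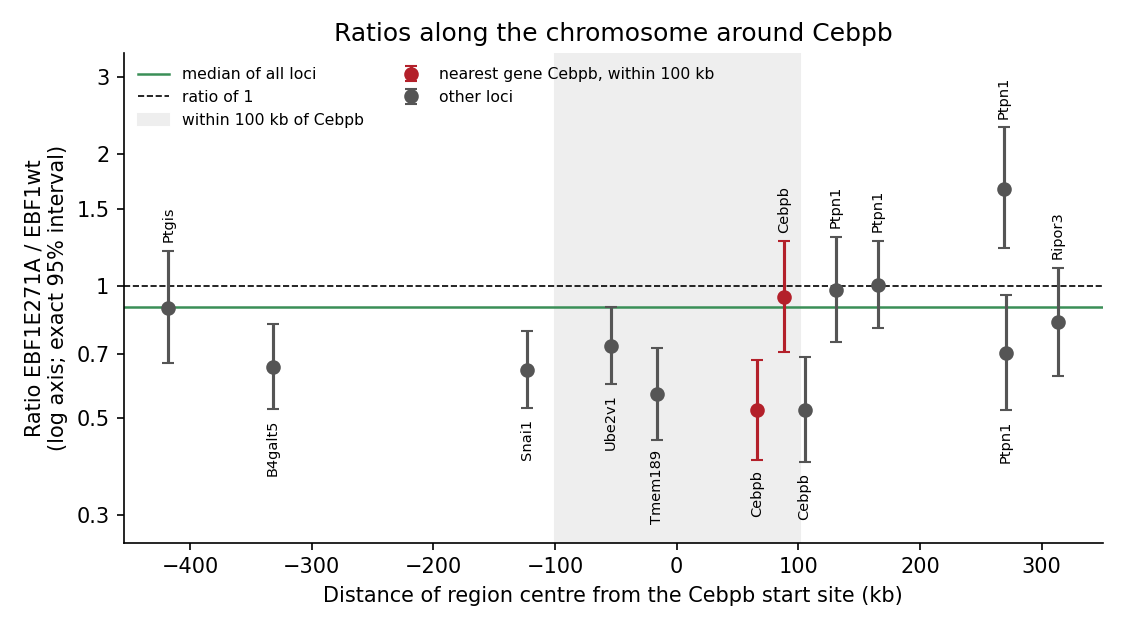
Ratio of EBF1E271A over EBF1wt (log axis) with exact 95% binomial intervals at the 13 loci within 500 kb of Cebpb locus 1, against the distance of the region centre from the Cebpb start in kb. Loci assigned to Cebpb within 100 kb are red, the others are grey with their nearest gene, and the shaded band marks 100 kb around the gene. Of the 13 loci, Cebpb locus 1 included, 6 lie below the green median line with their whole interval, as 16.7% of all loci did. One interval, at 1 of the loci inside Ptpn1, lies wholly above the line.

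The neighbours of the other genes were few and close to the median. A locus inside Rgs10, 276 kb from the Itgam region, had a ratio of 0.818. A locus next to Lnx2, 275 kb from the Flt3 region, had 0.978. A locus inside Grk5, 251 kb from the Csf2ra region, had 0.836 (0.678 to 1.03), and was the only other locus within 500 kb of it.

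EBF1 regions were also assigned to other genes of the myeloid and innate lymphoid programs. Of 54 listed genes, 11 were nearest to a locus and 43 were not; these lists were chosen with earlier results of these data known. Of the 49 genes beyond the 5, 6 had a locus, a share of 12.2% against 7.46% of all 21900 protein-coding genes. Of 10 myeloid transcription factors, Cebpb and Irf8 had loci, and Cebpa, Spi1 and Gfi1 were among the 8 that did not. Of 11 myeloid cytokine receptors, 4 had loci: Flt3, Csf2ra, Il6ra and Tnfrsf11a. Of 18 myeloid surface and granule genes, Itgam and Itgal did, and of 15 innate lymphoid genes, Id2, Itga4 and Itgb7 did. The innate lymphoid factors Nfil3, Zbtb16, Tbx21 and Eomes had none. A gene without a locus by this rule may still lie near one that is closer to another gene. Itgax, for example, counts as having none but lies 28.5 kb from the Itgam region.

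None of the 7 loci of the 6 additional genes passed 1.5-fold in either direction, against 14.1% of all loci lower and 3.11% higher. So few loci cannot tell this count from those shares. The lowest ratio lay 65.7 kb from Tnfrsf11a, which encodes the osteoclast receptor RANK, with 136.0 for EBF1wt and 93.6 for EBF1E271A (0.688, 0.524 to 0.909). The highest lay inside Itgb7, an integrin subunit gene of gut homing, with 226.1 and 276.4 (1.22, 1.01 to 1.49), an interval wholly above the median ratio, as for 17.3% of all loci. Its partner Itga4 had 102.8 and 93.0 (0.905). At Itgal, which encodes CD11a, the relative of CD11b on most leukocytes, 2 loci had ratios of 0.848 and 0.908. Inside Il6ra, the interleukin-6 receptor gene, the ratio was 0.830, and 43.3 kb from Irf8, which encodes a factor of monocyte and dendritic cell fate, it was 1.12 (0.845 to 1.51). Csf2ra and the nearer Cebpb locus had the lowest ratios of all 13 loci of these lists.

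**Figure D4:**
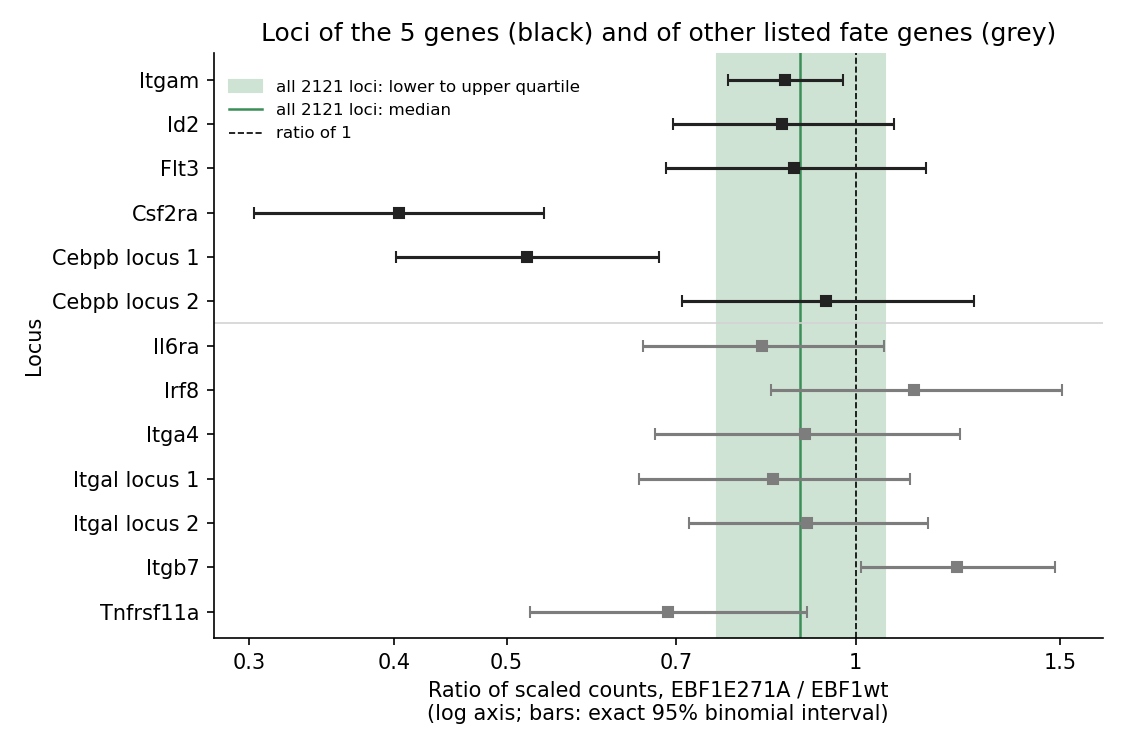
Ratio of EBF1E271A over EBF1wt (log axis) with exact 95% binomial intervals at the 6 loci of the 5 genes (black) and the 7 loci of other listed fate genes (grey). The green line and band give the median and the quartiles of 2121 loci, and the dashed line marks 1. The intervals of Csf2ra and Cebpb locus 1 end at 0.539 and 0.677, below the band.

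For the strongest locus of each gene, the 2 gene-assigned loci closest in both scaled counts were found by Euclidean distance on the log2 scale, over the 2 libraries. Itgam was most like a locus inside Rtca (654.6 and 615.4). Id2 was most like loci inside Lct (192.9 and 170.1) and inside Lyn (197.6 and 167.0), a kinase gene of B cell receptor signalling. Flt3 was most like a locus near Fam222a and one inside Ift140, each within 0.016 log2 units. Csf2ra was most like a locus 32.0 kb from Hmgb1 (148.6 and 63.9) and one inside Hip1 (143.9 and 63.9). The nearer Cebpb locus was most like a locus 2.96 kb from Crhbp (172.3 and 87.9) and one inside the centromere chaperone gene Hjurp (170.8 and 90.4).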

How the data were processed

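Of the 3 libraries, values were used for the EBF1wt and EBF1E271A ChIP. The deposited signal is a scaled count per region, per the file headers, and human spike-in chromatin served the authors for normalization, per the labels. Tools named in the submitters' processing notes are deepTools 3.3.2 and 3.5.0, MACS2 2.2.7.1, Bowtie2 2.3.5.1, bedtools 2.27.0 and SAMtools 1.10. For the calling of regions and the computing of scale factors, details are not given in the sources used here. All values are whole multiples of 1.5811 (EBF1wt) or 0.6325 (EBF1E271A), within 0.001 counts, and dividing by these gave unscaled counts (515897 and 1105818 in all). This step rests on the values. The intervals assume scale factors without error, and PCR copies are not separate molecules.

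Genes came from RefSeq (GRCm38.p6), and strands and starts from its promoter table, in which all 5 genes were found. Exons and introns were not analysed here. The region centre set the distance to the gene body. Loci were overlapping regions, given by the one with the higher mean. Folds were counted after a pseudocount of 1. Named are all loci of the 5 genes with their flanking genes, the neighbours within 500 kb, every other listed gene with a locus and the 2 most alike loci per gene; a few genes that this rule names are not reported here. Members and lists were chosen with earlier results of these data known. Intervals and the fold rule were tested on simulated data, with Python 3.11.15 and scipy 1.17.1. The simulated counts were independent Poisson draws, the error that the intervals assume. They held no PCR copies and no spread between libraries, so they cannot show how the intervals perform on these data. Alternatives were other scalings, pseudocounts, distances and ways to represent a locus.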

Additional observations from a re-analysis of the deposited data

How the results depend on the processing

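Of 53 recomputed values, 47 did not leave the main value's interval (counts: 1.5 times, the median: 1 SD over the 6 loci), and 6 changed side. All 6 came from another scale between the libraries. With equal sums over all regions, the ratio became 1.014 at Itgam, 1.008 at Id2, 1.033 at Flt3 and 1.1 at the farther Cebpb locus, and the median log2 ratio of the 6 loci became 0.02. With equal sums that left out the region of highest value, the farther Cebpb locus had 1.049, whereas Itgam (0.967), Id2 (0.962) and Flt3 (0.985) stayed below 1. The ratios at Csf2ra and the nearer Cebpb locus stayed below 1 under every alternative run, from 0.404 to 0.471 and from 0.521 to 0.607. Equal sums cannot show a change common to every region, so they are no test of the spike-in scale. No paired analysis was possible because each group had 1 library. Depth limits the weaker loci: at the farther Cebpb locus the EBF1wt library held 70 unscaled counts, and the interval of its ratio ran from 0.709 to 1.27. Motif content of the regions was planned and not run, since no genome was used here.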
